A study of Bos taurus with 13 samples.

Results

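In bovine mesenchymal stem cells, 53 of the 16595 genes in the deposited table met a rule on their heat differences. They were higher at 40.5 °C than at 37 °C both after 6 h and after 3 days. The rule also required them to be near the 3-day control 66 h after 6 h of heat had ended. No library followed the end of 3 days of heat. Mesenchymal stem cells are adherent, multipotent stromal cells. Here the primary cultures had been started from umbilical cord, were between passages 2 and 4, and grew in low-glucose medium with 10% serum. They were moved to the test temperature a day after seeding. Polyadenylated RNA was sequenced from 13 cultures in 5 groups. The 6 h control (n = 3) was kept at 37 °C and the 6 h heat group (n = 3) at 40.5 °C. The 3-day control (n = 2) was kept at 37 °C and the 3-day heat group (n = 3) at 40.5 °C. The recovery group (n = 2) had 6 h at 40.5 °C and then 66 h at 37 °C, per the sample titles, where the series text gives 3 days of recovery. The labels give no treatment other than temperature and time. They do not say how many animals the cultures came from, so the p-values below measure the spread between these libraries, which may be technical.

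The genes were chosen by their measured values. All values below are the authors' normalised read counts, and differences are differences of group means of log2(value + 1). A gene was a member when its mean over the 13 libraries was from 50 to under 20000, the 6 h heat group exceeded its control by at least 1, the 3-day heat group exceeded its control by at least 1, and the recovery group was within 0.5 of the 3-day control. A difference of 1 on this scale is close to a doubling. Of the 11182 genes in the range of levels, 175 passed the 6 h criterion and 360 the 3-day criterion, and 62 passed both. These 62 were 35.4% of the first and 17.2% of the second set. The recovery criterion then removed 9 genes, 8 of them above and 1 below the 3-day control. A further 65 genes met the 3 difference criteria but had a mean under 50, and 2 had a mean of 20000 or more. Because these 3 differences chose the members, they are given as descriptions, without a test.

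Cells exposed to heat activate a conserved programme in which heat shock factor 1 is released from its chaperone partners, forms trimers and binds promoters of chaperone genes. The chaperones refold damaged proteins, and their return to the factor is part of how the response is switched off. Stromal cells of connective tissue also make much secreted matrix, whose folding needs its own chaperones in the endoplasmic reticulum. The files do not pair the Ensembl identifiers with gene names, so which members belong to this programme was not determined here, and the markers that define stromal cells could not be looked up. Members are therefore called by their rank in mean value, from 1 for the most abundant to 53, and 4 identifiers are given. In bulk RNA, fewer cells of a type and less RNA per cell cannot be told apart.

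Reads recovered from the values ran from 14859428 to 39117065 per library. In each group that has 3 libraries, replicate 3 stood apart from replicates 1 and 2, and the 3-day control and recovery groups have no replicate 3. The labels do not say what sets replicate 3 apart. When replicates 1 and 2 alone were used, the rule again gave 53 genes, 44 of them the same. Leaving out single libraries gave between 43 genes (without replicate 3 of the 3-day heat group) and 64 genes (without replicate 3 of the 6 h control).

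The members spanned a wide range of abundance. Their mean values ran from 50.02 to 16710, with a median of 266.1. At least 1000 was reached by 14 members, 29 lay from 100 to under 1000, and 10 were under 100. The difference at 6 h had a median of 1.46, with quartiles of 1.15 and 1.79 and a maximum of 4.48. The difference after 3 days had a median of 1.27, with quartiles of 1.15 and 1.69 and a maximum of 6.17. Over all 13684 tested genes the medians were -0.01 and -0.0048. In the recovery group the members lay from -0.49 to 0.47 around the 3-day control, 25 above it and 28 below it.

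Heated and control libraries did not overlap in 52 members at 6 h and in 53 after 3 days. All 3 libraries at 40.5 °C for 6 h were above all 3 of their controls in 52 members, against 20.6% of all tested genes. All 3 libraries at 40.5 °C for 3 days were above both of their controls in 53 members, against 32.2% of all tested genes. The rule used these contrasts, so the counts describe the choice. The exception at 6 h was the member ranked 17, described below. The heat map of all members shows this order library by library.

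**Figure D1:**
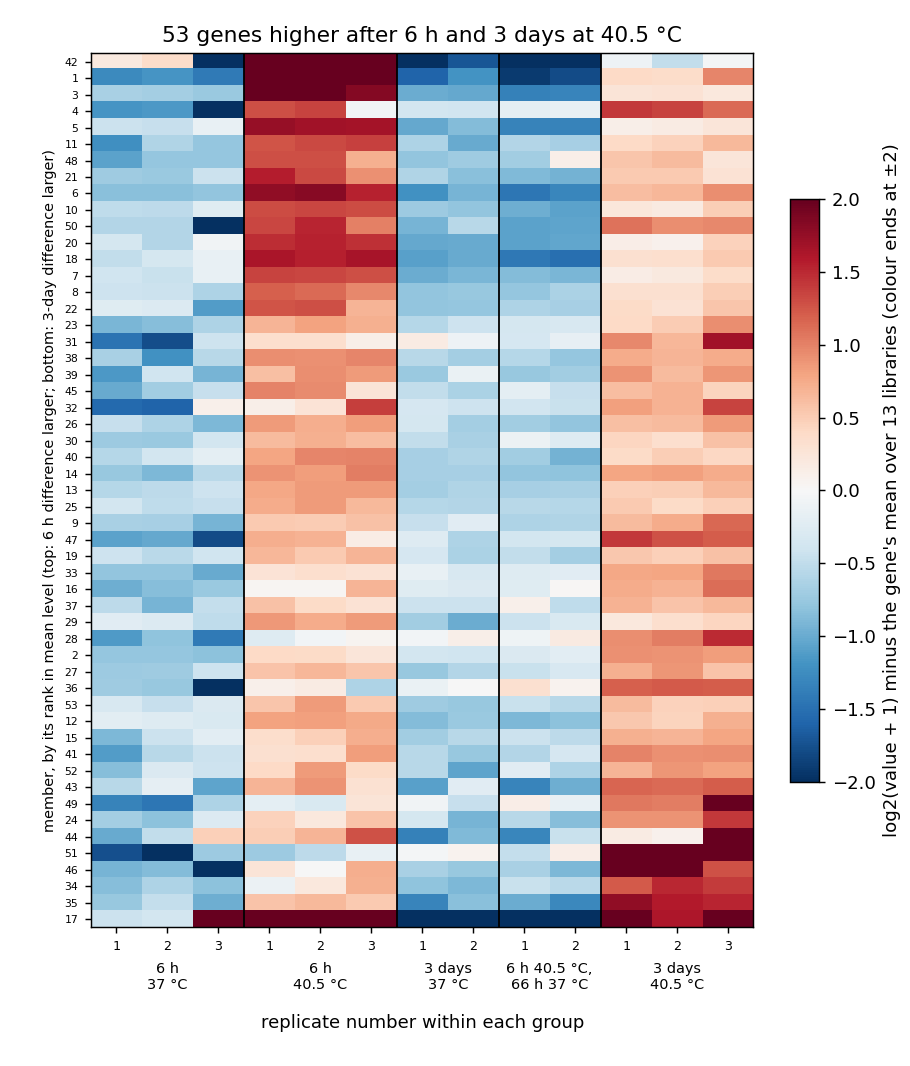
Heat map of log2(value + 1) minus each gene's mean over the 13 libraries, with 1 row per member (labelled by its rank in mean value) and 1 column per library, grouped by treatment; rows are sorted by the 3-day difference minus the 6 h difference, and colours end at 2 in either direction. Both groups at 40.5 °C are mostly red and the groups at 37 °C and after recovery are mostly blue. The deepest 6 h colours are at the top and the deepest 3-day colours at the bottom.

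Members differed in how the response was split between the times. The 6 h difference was the larger in 33 members and the 3-day difference in 20. They were within 0.5 of each other in 31 members, the 6 h difference was larger by at least 0.5 in 12, and the 3-day difference was larger by at least 0.5 in 10. No member had both differences at 2 or more, while 8 had the 6 h difference and 5 the 3-day difference at that size. Among the 14 members with a mean of at least 1000, the 6 h difference was the larger in 12. Of the 10 members under 100 it was the larger in 4. These classes use the mean over all 13 libraries, the heated ones included.

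**Figure D2:**
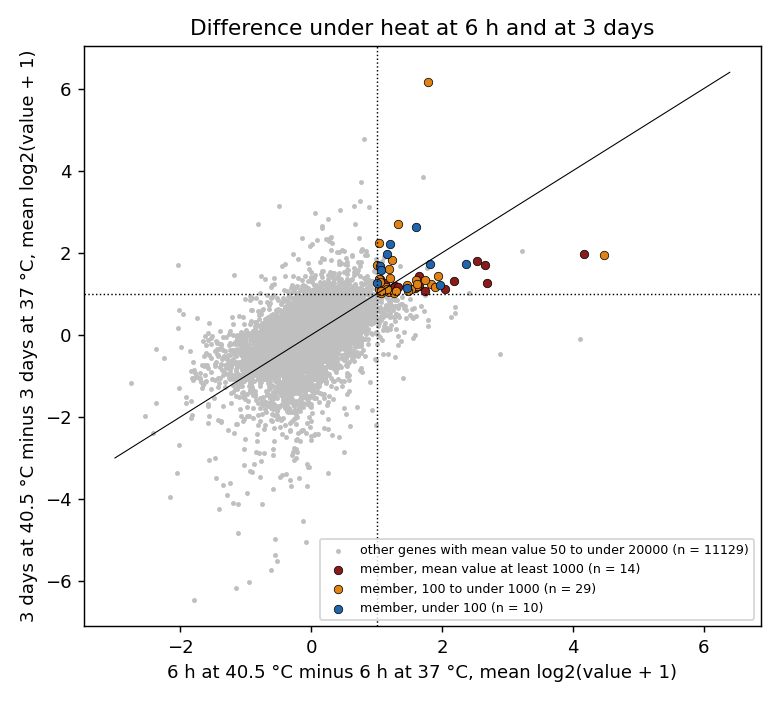
Each point is a gene, with the 6 h difference (heat minus control, mean log2(value + 1)) on the x axis and the 3-day difference on the y axis; members are coloured by mean value, other genes of the same range of levels are grey, dotted lines mark 1 and the solid line marks equal differences. Members with a mean of at least 1000 lie mostly below the line of equal differences, and a single member with a mean under 1000 reaches 6.17 on the y axis.

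Summed over the members, the share of the library was largest in the 6 h heat group. The members took 0.18%, 0.181% and 0.181% of all normalised values in the 6 h control libraries and 0.9%, 0.878% and 0.813% in the 6 h heat libraries. They took 0.168% and 0.176% in the 3-day control, 0.163% and 0.167% in the recovery group, and 0.449%, 0.447% and 0.506% in the 3-day heat group. The heated libraries did not overlap the libraries at 37 °C, nor did the 6 h and 3-day heat libraries overlap each other. The ratio of the group means was 4.79 at 6 h and 2.72 after 3 days, and 0.958 for recovery against the 3-day control. The rule used the heat and recovery differences, so the separation from the 37 °C libraries and the ratios here and below describe the choice.

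A few genes carried this sum. The 7 most abundant members held between 66% and 82.4% of it, depending on the library. Their share of the library was 5.72 times the control at 6 h and 2.81 times after 3 days. The other 46 members together were 2.78 times the control at 6 h and 2.5 times after 3 days. The most abundant member alone was 17.9 times its control at 6 h and 4 times after 3 days, and without it the members' share was 3.78 and 2.62 times the control. The stacked shares by library show this split.

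**Figure D3:**
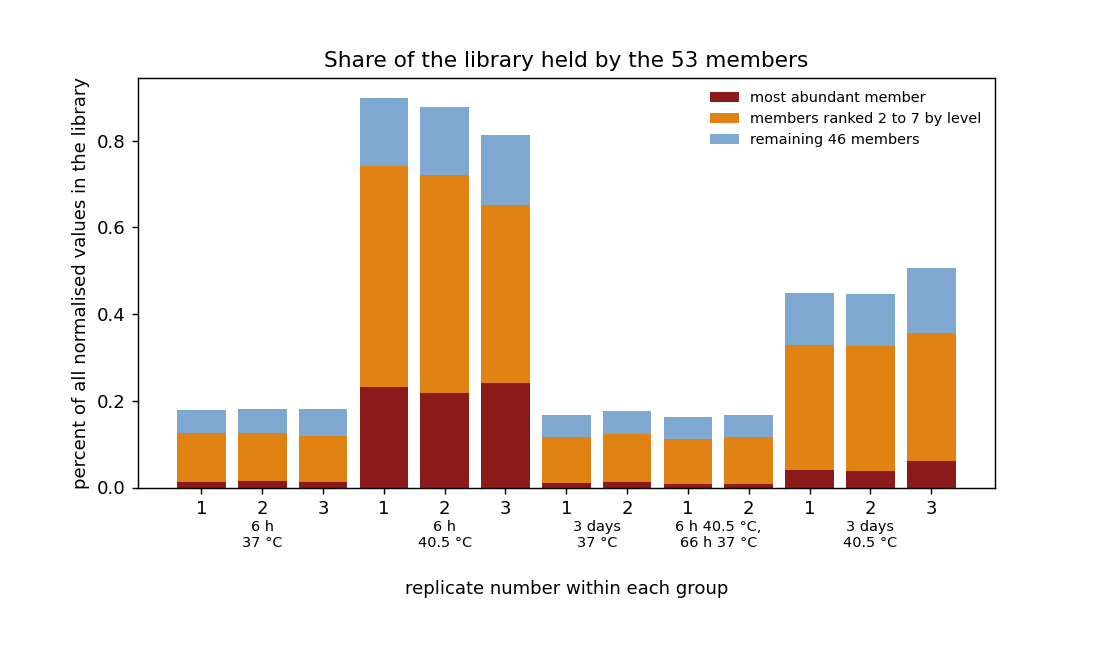
Stacked bars of the percent of all normalised values in each library held by the most abundant member, the members ranked 2 to 7 and the remaining 46, with libraries grouped by treatment. Bars at 37 °C and after recovery stay between 0.163% and 0.181%, those at 40.5 °C reach 0.813% to 0.9% at 6 h and 0.447% to 0.506% after 3 days.

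ENSBTAG00000025441 was the most abundant member and had the largest value of the smaller of its 2 heat differences. Its normalised values were 3088, 3270 and 2776 in the 6 h control and 55370, 51806 and 57121 in the 6 h heat group. They were 2457 and 3250 in the 3-day control, 1979 and 2146 after recovery, and 9776, 9594 and 14600 in the 3-day heat group. The heated libraries lay far above the controls at both times, those at 3 days far below those at 6 h, and both recovery libraries lay below both 3-day controls. The difference was 4.17 at 6 h (18-fold), 1.97 after 3 days (3.93-fold) and -0.46 after recovery.

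ENSBTAG00000039035, ranked 42, had the largest 6 h difference of all members and was second for the smaller of its heat differences. Its values were 36.1, 40.9 and 4.59 in the 6 h control and 521.8, 428.1 and 426.6 in the 6 h heat group. They were 4.34 and 8.98 in the 3-day control, 6.77 and 4.95 after recovery, and 29.4, 22.2 and 30.6 in the 3-day heat group. The 3-day heat libraries were above their own controls but below replicates 1 and 2 of the 6 h control, which at 37 °C held 60 and 50 reads of this gene. Replicate 3 of the 6 h control held 4 reads. The 6 h difference was 4.48 over all replicates and 3.59 within replicates 1 and 2. Within replicates 1 and 2 it was thus below the 4.07 of ENSBTAG00000025441. The 3-day difference of ENSBTAG00000039035, 1.95, rests on 20 to 34 reads in a heated library and on 5 and 7 reads in the controls.

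ENSBTAG00000011969, ranked 3, was lower in the 3-day than in the 6 h groups at either temperature. Its values were 4554, 4441 and 4246 in the 6 h control and 30847, 29445 and 25490 in the 6 h heat group. They were 3570 and 3523 in the 3-day control, 2800 and 2869 after recovery, and 8551, 8707 and 8258 in the 3-day heat group. No group overlapped another. The difference was 2.69 at 6 h, 1.26 after 3 days and -0.32 after recovery.

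ENSBTAG00000020060, ranked 17, had the largest 3-day difference and followed another order. Its values were 153.5, 160.3 and 1248 in the 6 h control and 830.4, 1037 and 1496 in the 6 h heat group. They were 11.3 and 15.4 in the 3-day control, 7.53 and 16.5 after recovery, and 947.9, 634 and 1756 in the 3-day heat group. Replicate 3 was the highest library in each of the 3 groups that have one, and replicate 3 of the 6 h control lay among the heated libraries. The 6 h difference was 1.79 over all replicates and 2.56 within replicates 1 and 2. The 3-day difference was 6.17, and 5.77 within replicates 1 and 2. The 3-day control held 13 and 12 reads of this gene.

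**Figure D4:**
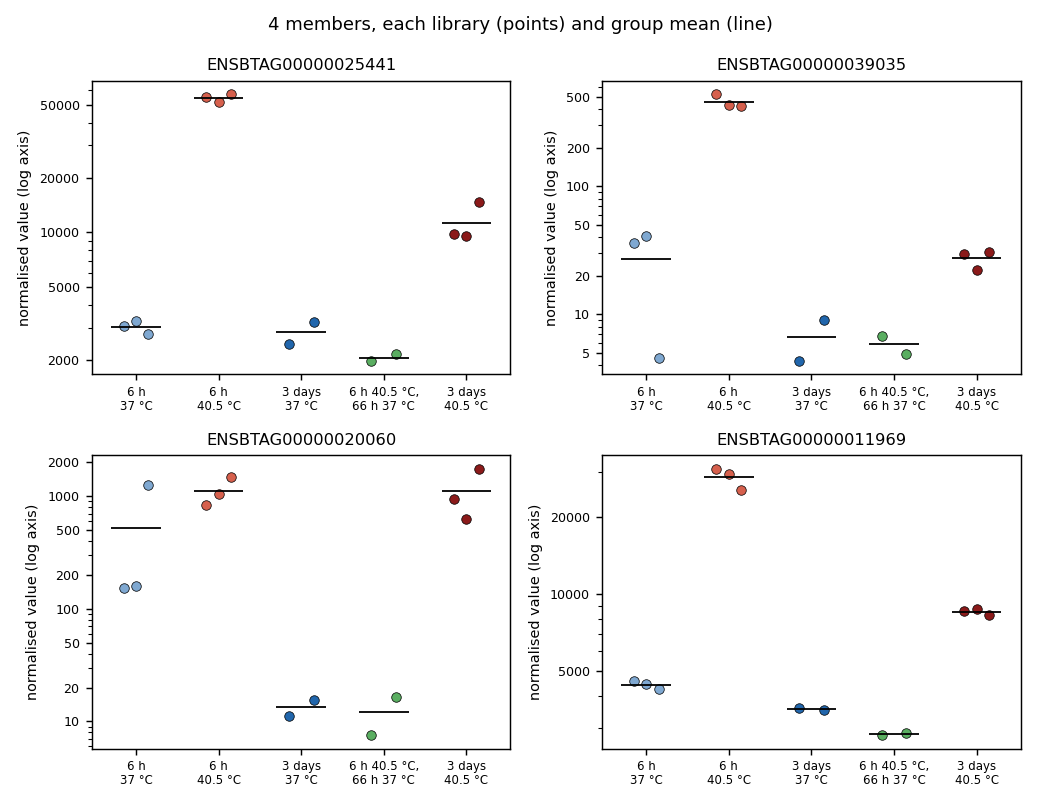
Normalised value of 4 members in each library (points, log axis) with the group mean (line), by treatment. ENSBTAG00000025441, ENSBTAG00000039035 and ENSBTAG00000011969 peak in the 6 h heat group, while ENSBTAG00000020060 is about as high after 3 days as after 6 h of heat and falls to between 7.53 and 16.5 in the 3-day control and recovery groups.

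Not every abundant member was highest at 6 h of heat. The member ranked 2 had 5749, 5794 and 5591 in the 6 h control and 13063, 12808 and 11631 in the 6 h heat group. It had 7627 and 7463 in the 3-day control, 8066 and 8503 after recovery, and 18560, 18308 and 17607 in the 3-day heat group. Its heat differences were 1.13 at 6 h and 1.27 after 3 days, while its level was higher after 3 days at either temperature. The member ranked 4 split by replicate at 6 h, with 3355, 3450 and 909.1 in the control and 18700, 19349 and 7366 under heat. After 3 days of heat its replicates were closer, at 20405, 19469 and 16799, with 5889 and 5759 in the control and 6676 and 6900 after recovery.

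The change with time in culture was not itself a criterion for the members, and it was tested with limma across all 13684 tested genes. The comparisons of 3 days with 6 h use the same libraries as the rule, in other pairs. The values compared thus also chose the members, and the calls and p-values for time are not independent of the choice. Under heat, the median change with time was -0.56 in genes that passed the rule only at 6 h. It was 0.81 in those that passed only after 3 days. At 37 °C, 8 members were higher (11.7% of all tested genes were) and 10 were lower (13.6% of all tested genes were) at an adjusted p of 0.05, and the other 35 did not pass. The members' shares, 15.1% and 18.9%, lay near these backgrounds. Among the members past the threshold, the largest rise was in the one ranked 51, from 9.03, 4.91 and 19.5 to 32.1 and 34.6, or 1.69 on the log2 scale (SE 0.42, adjusted p 0.0141 in limma). Of those past the threshold, the members ranked 31, 28, 36 and 47 followed with 1.26, 1.14, 1.1 and 0.86. The member ranked 4, at 1.41, did not pass (adjusted p 0.0689 in limma).

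The largest fall at 37 °C was in ENSBTAG00000020060, which fell by 4.47 on the log2 scale (SE 0.77, adjusted p 0.00282 in limma). Within replicates 1 and 2 it fell by 3.48, still past the threshold. Of those past the threshold, the members ranked 18, 20, 7 and 5 followed with -0.72, -0.68, -0.63 and -0.6. The members ranked 42 and 44, at -1.49 and -0.78, did not pass (adjusted p 0.13 and 0.385 in limma). These counts rest on few libraries. Within replicates 1 and 2, 13 members were higher and 13 lower, and with a term for replicate 3, 13 were higher and 11 lower. The share of all tested genes moves with the setting too. It was 18.3% higher and 18.5% lower with the replicate number as a block, and is not given for the settings named here. Without replicate 1 of the 3-day control 2 were higher and 6 lower, and without replicate 2 of that group 3 were higher and 6 lower.

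At 40.5 °C, 12 members were higher after 3 days than after 6 h (21.8% of all tested genes were) and 19 were lower (22.2% of all tested genes were), by the same test. The members' shares were 22.6% and 35.8%, and the heat values behind them also entered the choice of members. These counts include 3 higher and 1 lower call in members whose mean reached 50 only through the group they moved into or out of. Those members, ranked 51, 46, 49 and 42, are also in the class under 1000 below. Of the 19 falls, 10 were in abundant members. Of the 14 with a mean of at least 1000, 10 were lower and 1 was higher, where 29.4% of all tested genes from 1000 to under 20000 were lower and 21.4% higher. Of the 39 members under 1000, 9 were lower and 11 higher, where 18.9% of all tested genes under 1000 were lower and 21.9% higher. These classes use the mean over all 13 libraries, the 6 h heat group included. Without that group, the members ranked 11 to 14 had means of 763.5, 855.9, 832.9 and 817.4. Of these, the members ranked 11, 12 and 13 were called lower, so their class rests on the group they fell from. Whether the members differ from other genes of their level was not tested. Within replicates 1 and 2, 16 were higher and 21 lower, and the share of all tested genes under this setting is not given here.

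The level criterion bears on some of these calls. Without the libraries of their highest group, 7 members had a mean under 50, and 4 of the calls at 40.5 °C, 1 lower and 3 higher, were into or out of that group, so they are described without a p. ENSBTAG00000039035, with a mean of 458.8 in the 6 h heat group and 18.9 over the other 10 libraries, was the one lower, with a log2 difference of -4.02. Among the other members, ENSBTAG00000025441 fell by 2.3 (SE 0.15, limma adjusted p 1.63e-06) and ENSBTAG00000011969 fell by 1.74 (SE 0.07, limma adjusted p 6.71e-08). The heat values of both genes also entered the choice of members, so these p-values are not independent of it. The members ranked 5 and 20 fell by 1.52 and 1.27. All 3 libraries at 3 days lay below all 3 at 6 h in each of the 3 identified genes.

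The 3 higher members of this kind were those ranked 51, 46 and 49, with log2 differences of 2.69, 1.6 and 1.48. The member ranked 51 had 19.5, 22.7 and 29.7 after 6 h at 40.5 °C and 153.1, 162.1 and 157.9 after 3 days, and a mean of 23.2 over the 10 libraries outside the 3-day heat group. Of the other members past the threshold, those ranked 36 and 28 rose by 1.33 and 1.23. ENSBTAG00000020060, which fell at 37 °C, did not pass the threshold here, at -0.1 on the log2 scale (SE 0.69, adjusted p 0.923 in limma). Its 3-day heat libraries lay on both sides of the 6 h heat libraries.

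Calls at both temperatures were also counted. Of the 53, 7 were higher at both temperatures (6.38% of all tested genes were) and 9 were lower at both (8.44% of all tested genes were), and none was called higher at one and lower at the other. Such opposite calls were rare among all tested genes too, at 0.533% and 0.665%. A further 15 passed only at 40.5 °C, 5 of them higher (14.8% of all tested genes were) and 10 lower (13.1% were). Only at 37 °C passed 2 members, ranked 31 (higher, as 4.66% of all tested genes) and 17 (lower, as 4.66%). The member ranked 31 was near the threshold at 40.5 °C, at 0.84 (limma adjusted p 0.0544). At neither passed 20 members, against 46.7% of all tested genes. The counts at 40.5 °C include the members ranked 51, 46, 49 and 42, described above. The difference between the changes equals the 3-day minus the 6 h heat difference, which the rule constrains, so it was not tested.

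**Figure D5:**
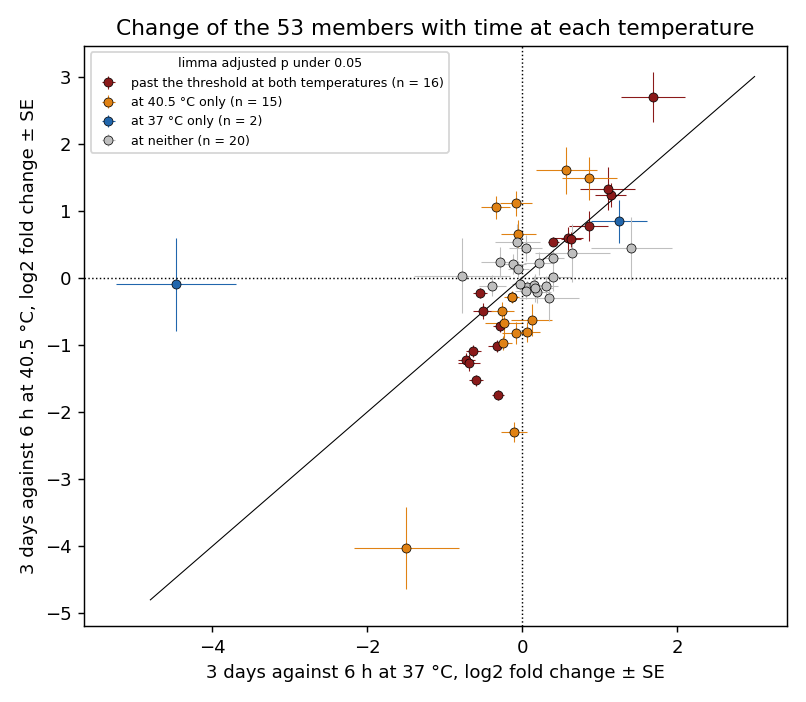
Log2 fold change of each member from 6 h to 3 days at 37 °C (x axis) and at 40.5 °C (y axis), with limma standard errors, coloured by the temperatures at which the adjusted p was under 0.05; the solid line marks equal change. The called members lie in the upper right or lower left except for those called at a single temperature, and ENSBTAG00000020060 lies alone at -4.47 on the x axis.

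The spread between replicates was also described. The SD left after the group means, on the log2 scale, had a median of 0.204 in the members and 0.144 in the 11182 genes from 50 to under 20000, without a test. Genes of the same levels and recovery criterion that passed at a single time had similar or larger medians. These were 0.208 in the 88 genes that passed only at 6 h and 0.239 in the 259 that passed only after 3 days. The 6 h difference between same-numbered libraries had a median of 1.44 in replicate 1, 1.39 in replicate 2 and 1.42 in replicate 3, and was above 0 in all 53 members in each. It was at least 1 in 49, 46 and 40 members. Relative to the mean of the 3-day control, the 3-day heat libraries had medians of 1.27, 1.25 and 1.42. The rule required the means of these differences to be at least 1, so the medians and counts describe the choice. The same counts over all tested genes are not given here.

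Replicate 3 of the 6 h control was at least 1 away from the mean of replicates 1 and 2 in 10 members (18.9%), against 8.74% of all tested genes. In the 6 h heat group this held for 2 members (3.77%, against 6.95%) and in the 3-day heat group for 3 (5.66%, against 6.01%). These libraries enter the heat differences that chose the members, so these counts are not independent of the choice. Within replicates 1 and 2, 49 members had a 6 h difference of at least 1. In 4 members, ranked 17, 32, 44 and 49, replicate 3 was higher by at least 0.5 in all 3 groups. The share of all tested genes with this pattern was not computed, so this count has no background. The member ranked 44 had 80.4, 76.6 and 359 in the 3-day heat group. The member ranked 32 had 50, 48.3 and 160.5 in the 6 h control and 161.4, 180 and 390.1 in the 6 h heat group, so that its control replicate 3 was just below the lowest heated library.

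The criteria cut through a continuous range. The smaller of the heat differences was under 1.1 in 16 members and at least 1.5 in 8. The 5 members nearest the threshold had it from 1.001 to 1.03, and the 5 nearest genes outside had it from 0.97 to 0.999. Of those outside, 1 had a mean of 10671 and the others lay between 102.8 and 739.9. The 9 genes set aside by the recovery criterion had recovery differences of -0.75 and from 0.58 to 1.52.

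The members were set beside the genes of the same levels and recovery criterion that passed at a single time. The 88 genes with a 6 h difference of at least 1 and a 3-day difference under 1 had a median of 1.2 at 6 h and 0.57 after 3 days. The 259 genes with a 3-day difference of at least 1 and a 6 h difference under 1 had a median of 0.4 at 6 h and 1.2 after 3 days. In most genes of these sets the other difference was thus also above 0, in 89.8% and 81.9%. Over all tested genes the 3-day difference was above 0 in 49.6% and the 6 h difference in 48.5%. With time at 37 °C the median change was 0.15 and -0.09 in these sets and -0.05 in the members. The sets were cut from the same differences, and no test was made between them.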

How the data were processed

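RNA of 13 libraries was analysed from the deposited table of normalised counts, a signal per gene. The headers and name of the deposit mark these values as normalised with DESeq. That read counts had been divided by a size factor of each library was inferred from the values. The submitters' processing notes name cutadapt, STAR, HTSeq, DESeq and the build ARS-UCD1.2, without versions or order, and the strand setting is not given in the sources used here. Low values were whole multiples of 1 step per library, so whole reads were recovered (100% of values within 0.01 reads). Genes at 10 or more in at least 2 libraries (13684, all 53 members among them) were fitted with limma 3.58.1 in R 4.3.3 on log2(value + 1), with 5 group means, a mean-variance trend and 8 residual degrees of freedom. Tests were two-sided, with Benjamini-Hochberg adjustment over all tested genes. The fold change on this scale understates that of low genes. As alternatives, edgeR 4.0.16 (TMM, quasi-likelihood) and DESeq2 1.42.0 were run on the recovered reads. The limma procedure was tested on simulated data.

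Replicate numbers come from the titles. Deviations from the group mean of same-numbered 6 h and 3-day heat libraries correlated across genes with r of 0.34, 0.27 and 0.51, all over 0.1, the criterion for pairing. The highest r with another number was 0.32, 0.28 and -0.37, so only replicate 3 was set apart. For the 6 h control and 6 h heat libraries r was 0.51, 0.5 and 0.72, and with another number at most 0.47, 0.48 and -0.57. For the 3-day control and 3-day heat libraries it was 0.02 and 0.02. The main limma fit held no term for the replicate number, which enters only among the alternatives below. No pair of replicates was within sampling noise.

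The members and lists were chosen with earlier results of these data known. Members described were the highest by mean value, by the smaller heat difference, by change with time in each direction and by distance to the thresholds, with at most 2 identifiers that rose and 2 that fell. The members ranked 44, 32, 2 and 4 were chosen after their values were seen, for replicate 3 or for their level. Because the reference table pairs none of the identifiers with symbols, planned gene lists, cell markers and promoter sequences were not used here.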

Additional observations from a re-analysis of the deposited data

How the results depend on the processing

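The alternatives were another pseudocount, filters, scalings, sample sets, the replicate number as a block, a term for replicate 3, edgeR and DESeq2 on recovered reads, and each library left out in turn. The number of members was recomputed under 6 of these (pseudocount, both scalings, replicates 1 and 2 only, edgeR and DESeq2), where it stayed between 46 and 58, and lay between 43 and 64 with single libraries left out. The counts for time at 40.5 °C stayed within 1.5 times, at 12 to 16 higher and 18 to 21 lower, and at 10 to 14 higher and 15 to 19 lower with single libraries left out. At 37 °C the 8 higher members became 13 within replicates 1 and 2, 13 with the replicate block and 13 with a term for replicate 3. When only the 2 control groups were fitted, 3 were higher and 5 lower. Leaving out single libraries gave 2 to 10 higher and 6 to 10 lower. Without a 3-day control library that arm held 1 library, assumed to vary like the other groups. The cause of these shifts was not tested. The control libraries shared only a replicate number (r of -0.05 and 0.13 for pairs 1 and 2). The replicate block gave 11 lower at 37 °C, and 16 higher and 19 lower at 40.5 °C. With this block, 18.3% of all tested genes were higher and 18.5% lower at 37 °C, and 27.9% higher and 28.4% lower at 40.5 °C. For the other alternatives the shares of all tested genes are not given here.

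Of the identified genes, ENSBTAG00000039035 had a change at 37 °C of -1.49 (limma adjusted p 0.13), and passed the threshold in 6 alternatives, with replicates 1 and 2 only at -2.43. ENSBTAG00000011969 was past the threshold at 37 °C as reported but not when either 3-day control library was left out (-0.32 and -0.31, against -0.32 as reported) or when only the controls were fitted (limma adjusted p 0.0528). ENSBTAG00000025441, ENSBTAG00000020060 and ENSBTAG00000011969 kept their side of the threshold at 40.5 °C in every alternative run. Planned counts over chaperone lists were not run, because no identifiers could be paired with symbols. Intervals of counting error were not computed.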
